A study of Mus musculus with 12 samples.

Results

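The core circadian clock and proline and acidic amino acid-rich (PAR) bZIP genes were followed in liver RNA from mice that over-express Mir483. The members were 10 genes, chosen by name out of the 55401 genes of the count table: Arntl, Clock, Per2, Per3, Nr1d1, Nr1d2, Dbp, Tef, Hlf and Nfil3. Each symbol matched 1 Ensembl gene, and all 10 members passed the filter on low counts, which kept 13205 genes. The question asked of them was whether genes that peak at opposite times of the day move in opposite directions when iTgMir483 and control livers are compared.

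The 12 livers came from female mice aged 15 weeks on a C57BL/6J background, 6 labelled as over-expressors (iTgMir483) and 6 as controls. iTgMir483 mice carry an ectopic Tet-off copy of Mir483 at Rosa26, which is transcribed whenever doxycycline is absent. The line was made from targeted embryonic stem cells, and its activation used a ubiquitous CMV-Cre carried by the mothers, so both groups descend from the same Cre cross and expression was not restricted to hepatocytes. Doxycycline was given to the dams in drinking water during pregnancy and then withdrawn, so that the transgene was active after birth. The controls were littermates and shared this exposure. The mice were kept on a 12-h light/dark cycle with chow. The hour of dissection and the time since the last meal are not given in the sources used here, and time of day, meals and genotype therefore cannot be told apart where they differ between mice.

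In the clock of mammalian cells, BMAL1 (encoded by Arntl) and CLOCK bind E-boxes and switch on their own repressors, the PER and CRY proteins, as well as the nuclear receptors REV-ERBα (Nr1d1) and REV-ERBβ (Nr1d2), which in turn repress Arntl. The PAR bZIP factors DBP, TEF and HLF activate genes through D-boxes, and NFIL3 represses the same sites. In mouse liver Arntl, Clock and Nfil3 messages peak late in the night to dawn, whereas those of Nr1d1, Nr1d2, Dbp, Tef, Hlf, Per2 and Per3 peak from day to early night, so a liver taken at another hour shows these classes shifted against each other.

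The sequence that defines the perturbation is the microRNA itself. Mir483 lies on chromosome 7, minus strand, within Igf2, and its mature arms are given 5′ to 3′ from RefSeq (GRCm38.p6) with the seed, bases 2 to 8, in capitals. The 3p arm is at chr7:142654932-142654952 and the 5p arm at chr7:142654968-142654989.

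miR-483-3p: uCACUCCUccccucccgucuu

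miR-483-5p: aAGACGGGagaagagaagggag

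The match to the 3p seed, AGGAGTG, occurred in the longest annotated 3′ untranslated region (UTR) of 2 of the 10 members, Per2 and Hlf, once in each. Among the 12098 tested genes with an annotated 3′ UTR, 12.6% held this match. No member held the match to the 5p seed, CCCGTCT, which 3.26% of those genes held. The Per2 match lies at base 293 of a UTR of 1889 bases (chr1:91417572-91417578, minus strand) and the Hlf match at base 1680 of 4223 (chr11:90339073-90339079, minus strand). They are shown with 10 flanking bases on each side and the match in capitals, from GENCODE transcripts (GRCm38).

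Per2 site: catggtcctcAGGAGTGtcttgacctc

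Hlf site: tgctgttcagAGGAGTGcttgggggct

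Clock motifs were searched on both strands of the RefSeq promoter windows, 250 bases before to 50 bases after each start site, which were given for 9 of the 10 members and not for Per2. The E-box was CACGTG, the related E′-box CACGTT, the D-box TTATGTAA or TTACGTAA, and the core of the REV-ERB and ROR element TAGGTCA or TGGGTCA. None of these overlapped another in the members. Of all 32851 windows, 7.15% held the E-box, 4.68% the E′-box, 1.06% the D-box and 6.45% the REV-ERB and ROR core. Tef held an E-box in both of its windows, 127 and 138 bases before the start sites, Nr1d1 an E′-box on the opposite strand 28 bases before its start, and Per3 the D-box at 205 and at 158 bases before its start. The REV-ERB and ROR core stood 31 bases after 1 of the 2 Arntl starts and, on the opposite strand, 12 bases before the Nfil3 start. These stretches are printed on the gene's strand with the motif in capitals, because these motifs are the kinds of site that clock and PAR bZIP factors bind. A match is a description of the letters only. No match was found in the windows of Clock, Nr1d2, Dbp or Hlf.

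Tef, chr15:81802546-81802551 (plus strand): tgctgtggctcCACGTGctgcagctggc

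Tef, chr15:81811276-81811281 (plus strand): acctggcccagCACGTGtctacatcgtt

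Nr1d1, chr11:98775400-98775405 (minus strand): gcacagatctcAACGTGccggctgctgg

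Per3, chr4:151044863-151044870 (minus strand): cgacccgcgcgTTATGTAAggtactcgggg

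Per3, chr4:151044816-151044823 (minus strand): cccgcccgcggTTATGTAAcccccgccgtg

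Arntl, chr7:113207541-113207547 (plus strand): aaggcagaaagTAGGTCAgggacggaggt

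Nfil3, chr13:52981045-52981051 (minus strand): gcgctcggaacTGACCTActaacacacat

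None of the 10 members changed between iTgMir483 and control livers. A gene counted as changed when edgeR's quasi-likelihood test gave an adjusted p (Benjamini-Hochberg, over all 13205 genes) under 0.05 and the levels differed over 1.5-fold. Of all genes tested 11.1% changed by this rule, made up of 8.41% that were higher and 2.73% that were lower in iTgMir483. By the adjusted p alone 1 of the 10 members passed, Hlf, against 18.6% of all genes. Without the adjustment 1 of the 10 members passed at p under 0.05 in edgeR, against 33.4% of all genes. DESeq2 also called 0 members changed. The median log2 fold change of the members was -0.16, beside 0.01 over all genes. The ranges of the 2 groups overlapped for each of the 10 members, whereas 7.92% of all genes had groups that did not overlap.

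Levels are given as CPM, the counts brought to a common library size after TMM scaling (trimmed mean of M-values). Arntl encodes BMAL1, the partner of CLOCK in the activating arm. Arntl was at 16.3, 3.85, 19.9, 15.9, 6.03 and 6.67 CPM in controls 1 to 6 and at 3.06, 7.21, 8.997, 5.94, 8.83 and 20.9 CPM in iTgMir483 livers 1 to 6. Controls 1, 3 and 4 stood at 15.9 CPM or more and controls 2, 5 and 6 at 6.67 CPM or less, with nothing between, and iTgMir483 liver 6 was the single high liver of its group. The log2 fold change was -0.33 ± 0.44 (SE, n = 6 per group, edgeR adjusted p = 0.639, exact permutation p = 0.587), and the control range covered all but the lowest and the highest iTgMir483 liver.

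Clock, whose product acetylates histones as it activates transcription with BMAL1, was far steadier. Its levels were 65.5, 49.2, 58.1, 75.3, 59.0 and 46.8 CPM in controls and 53.3, 43.7, 44.8, 33.5, 55.7 and 57.4 CPM in iTgMir483 livers. All iTgMir483 livers lay below the control median of 58.6 CPM and 3 of the 6 lay below every control. The log2 fold change was -0.30 ± 0.14 with a 95% interval from -0.60 to 0.01 (edgeR adjusted p = 0.162, exact permutation p = 0.0866), so the difference did not pass the test.

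Per2 and Per3 encode PERIOD proteins, which bind CRY and shut off BMAL1 and CLOCK. Per2 was at 12.8, 72.0, 21.9, 32.7, 35.6 and 71.2 CPM in controls and at 32.2, 30.5, 26.5, 76.0, 32.7 and 25.5 CPM in iTgMir483 livers. A single iTgMir483 liver, replicate 4, stood as high as the top controls 2 and 6, while the other 5 lay within 25.5 to 32.7 CPM. Per3 was at 13.6, 66.3, 17.4, 16.3, 34.3 and 56.0 CPM in controls and at 33.6, 47.3, 23.7, 31.2, 24.2 and 17.6 CPM in iTgMir483 livers, which all fell inside the control range. The log2 fold changes were -0.14 ± 0.39 for Per2 (edgeR adjusted p = 0.837) and -0.19 ± 0.38 for Per3 (adjusted p = 0.760), and both turned positive without control 2 or without control 6, to 0.10 and 0.08 for Per2 and to 0.12 and 0.0033 for Per3.

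Nr1d1 encodes REV-ERBα, the haem-binding repressor that sets the rhythm of Arntl. Its levels were 62.2, 72.6, 21.7, 71.6, 62.1 and 65.1 CPM in controls and 132, 135, 108, 14.9, 103 and 74.1 CPM in iTgMir483 livers. Of the iTgMir483 livers 5 stood above every control and the remaining one, replicate 4, stood below every control. With all livers the log2 fold change was 0.67 ± 0.39 and did not pass the test (edgeR adjusted p = 0.251). The difference in mean log2 CPM was 0.49 (exact permutation p = 0.413). Without iTgMir483 liver 4 the edgeR log2 fold change was 0.90 ± 0.25 (edgeR adjusted p = 0.0253), which would make Nr1d1 the 1 member changed. The same iTgMir483 liver 4 had the highest level of Per2, Nfil3 and Cry1 in its group.

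Nr1d1 shares 263 exonic bases with Thra on the opposite strand, and the strand setting of the counting is not stated, so reads of the shared stretch cannot be assigned with certainty. Thra was at 13.3 to 17.3 CPM in controls and 14.0 to 24.5 CPM in iTgMir483 livers (log2 fold change 0.41, edgeR adjusted p = 0.0425). Nr1d2, which encodes the close relative REV-ERBβ, was at 66.4, 83.4, 40.9, 55.0, 95.5 and 67.1 CPM in controls and 99.8, 67.4, 62.4, 68.2, 66.0 and 43.7 CPM in iTgMir483 livers. Its median was 66.8 CPM in controls and 66.7 CPM in iTgMir483 livers, with a log2 fold change of -0.0020 ± 0.20 (95% interval -0.43 to 0.43, edgeR adjusted p = 0.996). The medians of Nr1d2 were thus level while those of its paralog were 63.6 and 106 CPM.

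Dbp, the PAR bZIP gene with the deepest daily rhythm in liver, had the largest fold change of the members. It was at 13.7, 60.5, 7.60, 9.85, 45.5 and 67.4 CPM in controls and 94.0, 101, 64.7, 39.6, 56.8 and 26.9 CPM in iTgMir483 livers. Controls 1, 3 and 4 stood below all iTgMir483 livers, controls 2, 5 and 6 stood among them, and iTgMir483 livers 1 and 2 stood above every control. The log2 fold change of 0.91 ± 0.51 had a 95% interval from -0.18 to 2.003 and did not pass the test (edgeR adjusted p = 0.230), although 6 of 6 iTgMir483 livers lay above the control median of 29.6 CPM. The difference in mean log2 CPM was 1.265 (exact permutation p = 0.0952). Dbp shares 539 exonic bases with Sphk2 on the opposite strand, and Sphk2 was at 61.3 to 81.8 CPM in controls and 49.97 to 100.4 CPM in iTgMir483 livers (log2 fold change 0.06, edgeR adjusted p = 0.830).

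Tef, the PAR bZIP gene first known from the thyrotroph, was at 135, 276, 124, 162, 248 and 298 CPM in controls and 203, 199.7, 168, 203, 181 and 138 CPM in iTgMir483 livers. The iTgMir483 livers all lay inside the control range. Apart from liver 6, at 138 CPM, they stood above the low controls 1, 3 and 4 and below the high controls 2, 5 and 6. The log2 fold change was -0.19 ± 0.21 (edgeR adjusted p = 0.572). Tef shares 193 exonic bases with the antisense gene Gm17597, which was not tested.

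Hlf, the remaining PAR bZIP gene, was the only member to pass the adjusted p. Its levels were 59.7, 65.9, 54.6, 64.3, 68.3 and 73.6 CPM in controls and 60.4, 52.2, 42.8, 59.4, 47.9 and 44.4 CPM in iTgMir483 livers. All iTgMir483 livers lay below the control median of 65.1 CPM, 4 of them below every control, while livers 1 and 4 overlapped controls 1 and 3. The log2 fold change was -0.33 ± 0.11 with a 95% interval from -0.56 to -0.10 (edgeR adjusted p = 0.0424, exact permutation p = 0.013), a level 1.26-fold lower and under the threshold of 1.5. Its adjusted p went above 0.05 without any 1 of 8 of the 12 livers, up to 0.095, and was 0.0587 with no filter on low counts.

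Nfil3, the repressor that competes with the PAR bZIP factors for D-boxes, was at 39.7, 12.1, 19.9, 22.1, 14.9 and 11.7 CPM in controls and 14.4, 9.49, 14.8, 39.7, 14.8 and 21.3 CPM in iTgMir483 livers. Each group had a single liver at 39.7 CPM, control 1 and iTgMir483 liver 4. The log2 fold change was -0.08 ± 0.35 (edgeR adjusted p = 0.898) and turned to 0.23 without control 1 and to 0.06 without iTgMir483 liver 2.

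**Figure D1:**
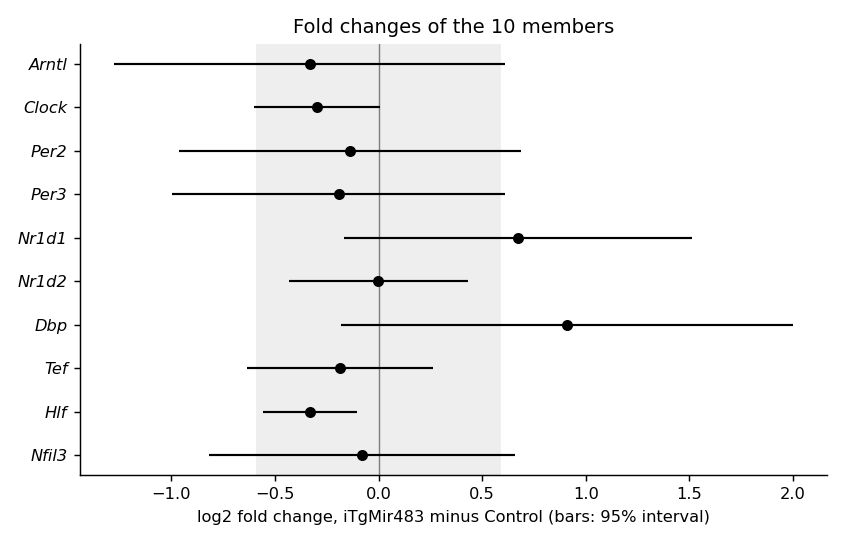
Log2 fold change of each member, iTgMir483 minus Control (x axis), with 95% intervals as bars; the grey band marks fold changes under 1.5 in either direction. The Hlf interval alone excludes 0, and its point lies inside the band; the widest interval belongs to Dbp, from -0.18 to 2.003.

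The late-night and the day genes did not separate by direction in the comparison of the groups. The 3 late-night members all had negative log2 fold changes, as did 5 of the 7 day members, and Nr1d1 and Dbp were the 2 with positive values. Of the 21 pairs of a late-night with a day gene, 6 had fold changes of opposite sign, which are the pairs that hold Nr1d1 or Dbp, and in 0 pairs were both genes changed. Per2, Per3, Nr1d2 and Nfil3 also changed sign under at least 1 alternative setting, so the counts of signs rest on values near 0. By the difference in mean log2 CPM, Per3 (0.0069) and Nr1d2 (0.0088) were also above 0, and Per2 (-0.0037) stayed below it.

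Within a liver the ratio of a late-night to a day gene gives the same relation without the scaling between libraries. The log2 ratio of Arntl to Dbp ran from -3.96 to 1.39 with a median of -1.33 in controls and from -4.93 to -0.36 with a median of -2.79 in iTgMir483 livers. That of Nfil3 to Dbp ran from -2.52 to 1.53 with a median of -0.22 in controls and from -3.40 to 0.0027 with a median of -2.03 in iTgMir483 livers. For Arntl to Nr1d1 the medians were -2.72 and -3.56, and for Clock to Per3 1.26 and 0.79. All 4 ratios were lower on average in iTgMir483 livers, by 0.80, 1.58, 0.31 and 1.36 on the log2 scale for Arntl to Nr1d1, Arntl to Dbp, Clock to Per3 and Nfil3 to Dbp, and all 4 overlapped between the groups. Without single livers the difference for Arntl to Nr1d1 ran from -1.20 (without iTgMir483 liver 4) to -0.33 (without control 3), and was -0.38 without iTgMir483 liver 1. That for Clock to Per3 ran from -0.60 (without control 2) to -0.06 (without control 1). The ranges were -2.11 to -1.04 for Arntl to Dbp and -1.78 to -0.97 for Nfil3 to Dbp, the former reached without control 2 and control 3 and the latter without control 6 and control 1. No test was run on these ratios. Apart from Clock to Per3, each pair holds Nr1d1 or Dbp, the only day members with a positive log2 fold change in edgeR. These pairs therefore do not stand for all pairs of a late-night and a day gene.

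The opposite course of the 2 classes was seen between control livers, and for part of the members between iTgMir483 livers. In controls the livers with high Arntl, 1, 3 and 4, each had less Per2, Per3, Nr1d2, Dbp, Tef and Hlf, and more Nfil3, than every one of livers 2, 5 and 6. Dbp, for example, was at 7.60 to 13.7 CPM in the first and 45.5 to 67.4 CPM in the second. Clock and Nr1d1 did not divide the controls in this way: Clock was 58.1 CPM in control 3 and 59.0 CPM in control 5, and Nr1d1 was low in control 3 alone. Because Arntl split the controls into separate sets of 3 and 3 livers, no r is given for them. None of the 9 relations of Arntl computed in controls had an adjusted p under 0.05 (exact permutation of Pearson r, smallest 0.111). The sets of livers were read from these same values.

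In iTgMir483 livers, where Arntl did not split in this way, Nr1d2 decreased in exact rank order as Arntl increased (Pearson r = -0.985, exact permutation p = 0.0042, adjusted p = 0.0375; Spearman rho = -1, exact p = 0.0028, the smallest that 6 livers allow, adjusted p = 0.050; n = 6). Without livers 1 and 6, the farthest from the median of Arntl, r was -0.81. Tef also decreased as Arntl increased, but not in exact rank order (Pearson r = -0.893, exact permutation p = 0.0028, adjusted p = 0.0375, n = 6). Its Spearman rho was -0.943 (exact permutation p = 0.0167, adjusted p = 0.1), and r was -0.90 without those livers. These were the 2 relations with an adjusted p under 0.05 among 18 computed, 9 in each group. Hlf had r = -0.813 (exact permutation p = 0.0278, adjusted p = 0.111; rho = -0.943, exact p = 0.0167, adjusted p = 0.1), and -0.954 without the 2 livers. Dbp had r = -0.716 (exact permutation p = 0.106, adjusted p = 0.173; rho = -0.486, exact p = 0.356, adjusted p = 0.427), which turned to 0.348 without them and so rested on livers 1 and 6. Nr1d1 had r = -0.019 (exact permutation p = 0.939, adjusted p = 0.939; rho = -0.257, exact p = 0.658, adjusted p = 0.658), and 0.795 without the 2 livers. Per3 had r = -0.690 (exact permutation p = 0.119, adjusted p = 0.179; rho = -0.829, exact p = 0.0583, adjusted p = 0.15), and -0.562 without them. Per2 had r = -0.385 (exact permutation p = 0.343, adjusted p = 0.412; rho = -0.714, exact p = 0.136, adjusted p = 0.223), and -0.868 without them. Of the other late-night genes, Clock had r = 0.303 with Arntl (exact permutation p = 0.564, adjusted p = 0.634; rho = 0.543, exact p = 0.297, adjusted p = 0.382), and 0.870 without the 2 livers. Nfil3 had r = 0.101 (exact permutation p = 0.867, adjusted p = 0.918; rho = 0.257, exact p = 0.658, adjusted p = 0.658), which turned to -0.628 without them.

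**Figure D2:**
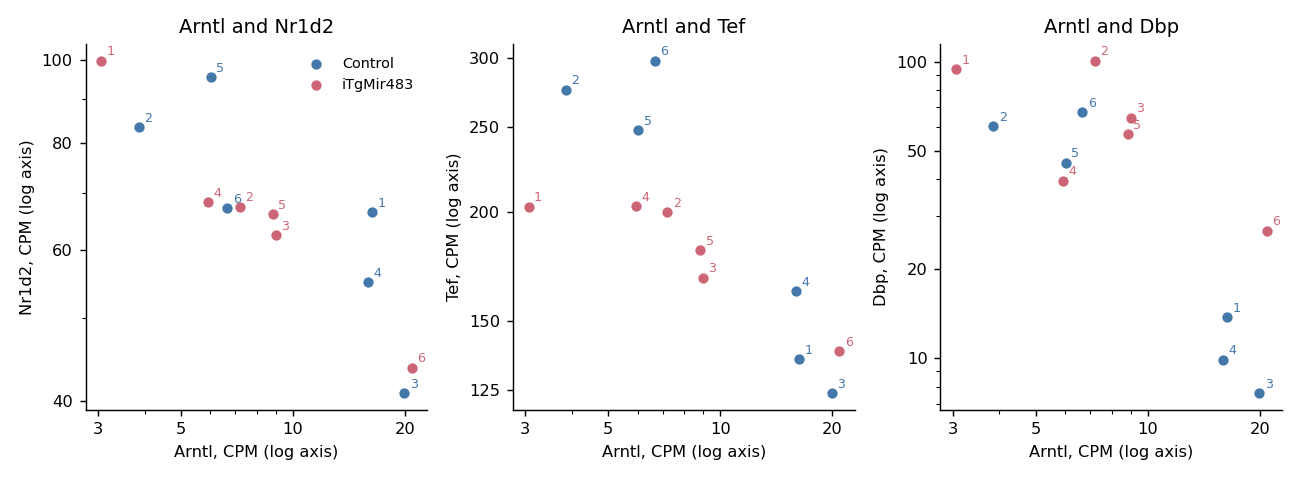
Arntl (x axis, CPM, log scale) against Nr1d2, Tef and Dbp (y axes, CPM, log scale) in the 12 livers, Control in blue and iTgMir483 in red, with replicate numbers beside the points. Controls form a set at high and a set at low Arntl in each panel; among iTgMir483 livers Nr1d2 decreases in rank order with Arntl, r = -0.985.

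**Figure D3:**
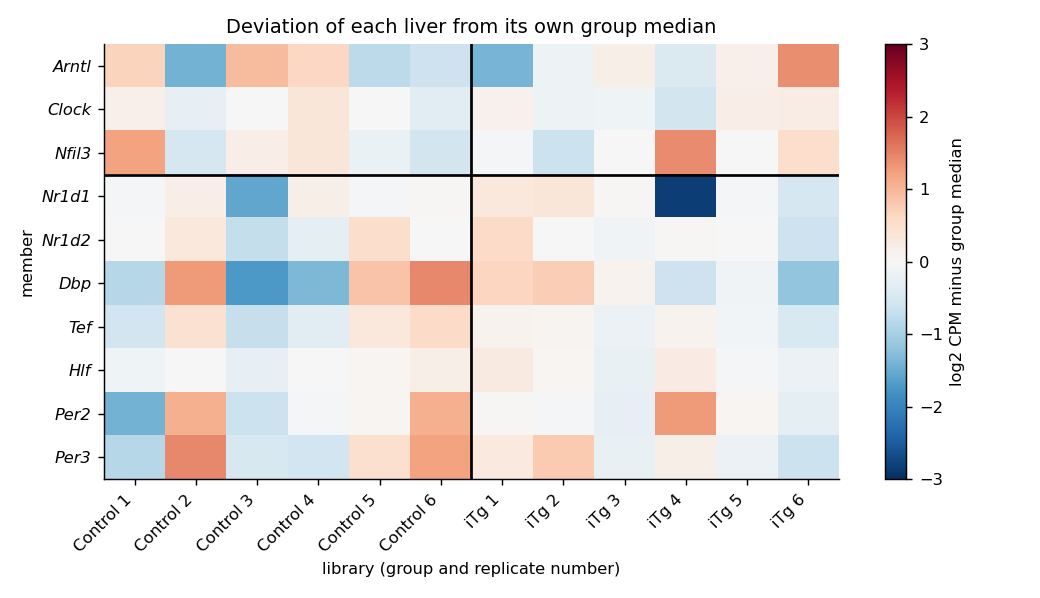
Deviation of each liver from the median of its own group, in log2 CPM, for the 3 late-night members (above the horizontal line) and the 7 day members (below it), with red above and blue below the median. Controls 1, 3 and 4 are red for Arntl and blue for Dbp, Tef, Per2 and Per3, controls 2, 5 and 6 the reverse, and iTgMir483 liver 4 departs mainly in Nr1d1, Per2 and Nfil3.

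The members differed widely in how much they varied between livers of a group. The SD of log2 CPM, pooled over the groups, was 1.12 for Dbp, 0.98 for Nr1d1, 0.93 for Arntl, 0.80 for Per2, 0.77 for Per3 and 0.68 for Nfil3, against a median of 0.26 over all genes tested. It was 0.42 for Tef, 0.41 for Nr1d2, 0.27 for Clock and 0.18 for Hlf. Dbp was at the 98.4th percentile of all genes and Hlf at the 24.2nd. From the lowest to the highest of the 12 livers, Dbp spanned 13.3-fold, Nr1d1 9.08-fold and Arntl 6.84-fold, whereas Hlf spanned 1.72-fold. The SD was larger in controls than in iTgMir483 livers for Dbp (1.41 and 0.73), Per3 (0.98 and 0.49) and Tef (0.55 and 0.22), and smaller for Nr1d1 (0.67 and 1.21). These differences were not tested.

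Compared per kilobase of exon (RPKM, mean ± SD, n = 6 controls), Tef was the most abundant member at 26.3 ± 9.65, followed by Nr1d1 at 19.2 ± 6.16, Nr1d2 at 12.6 ± 3.61, Dbp at 11.4 ± 9.02, Nfil3 at 9.91 ± 5.17, Hlf at 9.64 ± 0.99, Per2 at 7.005 ± 4.27, Clock at 4.30 ± 0.77, Per3 at 3.53 ± 2.34 and Arntl at 1.52 ± 0.89. Neighbours in this order differed by less than the larger of their SDs, except Nr1d1 and Nr1d2. In iTgMir483 livers Nr1d1 was first at 30.7 ± 14.6 followed by Tef at 23.1 ± 3.26 and Dbp at 21.3 ± 9.78, and Arntl again last at 1.22 ± 0.82.

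Genes whose deviations from the group means followed those of Arntl or Dbp were ranked by Pearson's r over the 12 livers, among 10551 genes whose mean count was 50 or more. These r values describe livers that share the splits above and carry no p. Closest to Arntl were Clpx (r = 0.889), Cyp4f17 (0.871), Leo1 (0.871), Lgalsl (0.860) and Apobec1 (0.857). The most opposed to it were Pex7 (-0.895), the members Nr1d2 (-0.894) and Tef (-0.860), Gm45909 (-0.887) and 1700025G04Rik (-0.880). Closest to Dbp were Wee1 (0.928), the kinase that holds cells before mitosis, the members Tef (0.914) and Per3 (0.898), Cnn3 (0.881) and Narf (0.877). The most opposed to Dbp were Tars (-0.917), Clpx (-0.911), Ddc (-0.903), Nat10 (-0.859) and Cyp4f17 (-0.856). Members of the clock thus stood at the ends of both rankings, and Clpx and Cyp4f17 stood at opposite ends of them.

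Of 16 other genes of the clock, 15 were tested and 0 changed, against 11.1% of all genes (edgeR), with 2 at an unadjusted p under 0.05 beside 33.4% of all genes, and DESeq2 also called 0. Csnk1e, a kinase that marks PER proteins for destruction, was at 11.4 to 14.3 CPM in controls and 11.2 to 19.5 CPM in iTgMir483 livers, with a log2 fold change of 0.41 ± 0.13 (edgeR adjusted p = 0.0486) that lay under the fold threshold. The transcriptional repressor Bhlhe41 had a log2 fold change of 1.42 ± 0.54 (edgeR adjusted p = 0.0811), Btrc, part of the ligase that degrades PER, 0.25 ± 0.13 (adjusted p = 0.191), and Npas2, which can stand in for CLOCK, 1.09 ± 0.62 (adjusted p = 0.238). Counts of Bhlhe41 and Npas2 were low, from 2 to 40 and from 2 to 55 in single livers. Without iTgMir483 liver 4, Bhlhe41 and Cry1 were called changed, 2 of the 15. Cry1, a repressor with PER, was at 10.6 to 14.4 CPM in controls, and iTgMir483 livers ran from 3.36 to 8.56 CPM except liver 4, at 21.7 CPM. Cry1 is named here after its values were seen.

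Of 20 liver genes known as targets or outputs of the clock, 5 changed (25%, beside 11.1% of all genes). Of the 20, 4 were called lower and 1 higher in iTgMir483, beside 2.73% and 8.41% of all genes. The groups did not overlap for 3 of the 20, all among the changed genes, beside 7.92% of all genes. Elovl3, a fatty acid elongase controlled by REV-ERBα, was at 3.66 to 37.6 CPM in controls with a median of 11.3 and at 1.01 to 2.64 CPM in iTgMir483 livers (log2 fold change -2.96 ± 0.53, edgeR adjusted p = 0.0024). Without control 1, the highest at 37.6 CPM, its log2 fold change was -2.33. Nr1i3, the xenobiotic receptor CAR, was at 811 to 1216 CPM in controls and 285 to 577 CPM in iTgMir483 livers (log2 fold change -1.27 ± 0.17, edgeR adjusted p = 0.00048). Cyp8b1, the sterol 12α-hydroxylase of bile acid synthesis, had a log2 fold change of -1.29 ± 0.35 (edgeR adjusted p = 0.019). Insig2, which retains SREBP in the endoplasmic reticulum, had -0.86 ± 0.27 (edgeR adjusted p = 0.0403), a call lost without any 1 of 6 of the 12 livers.

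Rgs16, a brake on G protein signalling that responds to the clock and to feeding, was the gene that rose. It was at 16.4 to 111 CPM in controls and 114 to 291 CPM in iTgMir483 livers (log2 fold change 1.29 ± 0.37, edgeR adjusted p = 0.0248). The call was lost without control 3 (adjusted p = 0.0512) or without iTgMir483 liver 4 (adjusted p = 0.0531). Among output genes that did not change, those with the smallest adjusted p were Cyp2a5 (log2 fold change 0.86 ± 0.37, edgeR adjusted p = 0.124), Gys2 (0.46 ± 0.21, 0.143), Alas1 (-0.81 ± 0.40, 0.174) and Usp2 (-0.77 ± 0.47, 0.277). Without control 3 the list had 3 changed genes, Insig2 and Rgs16 being the calls lost.

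**Figure D4:**
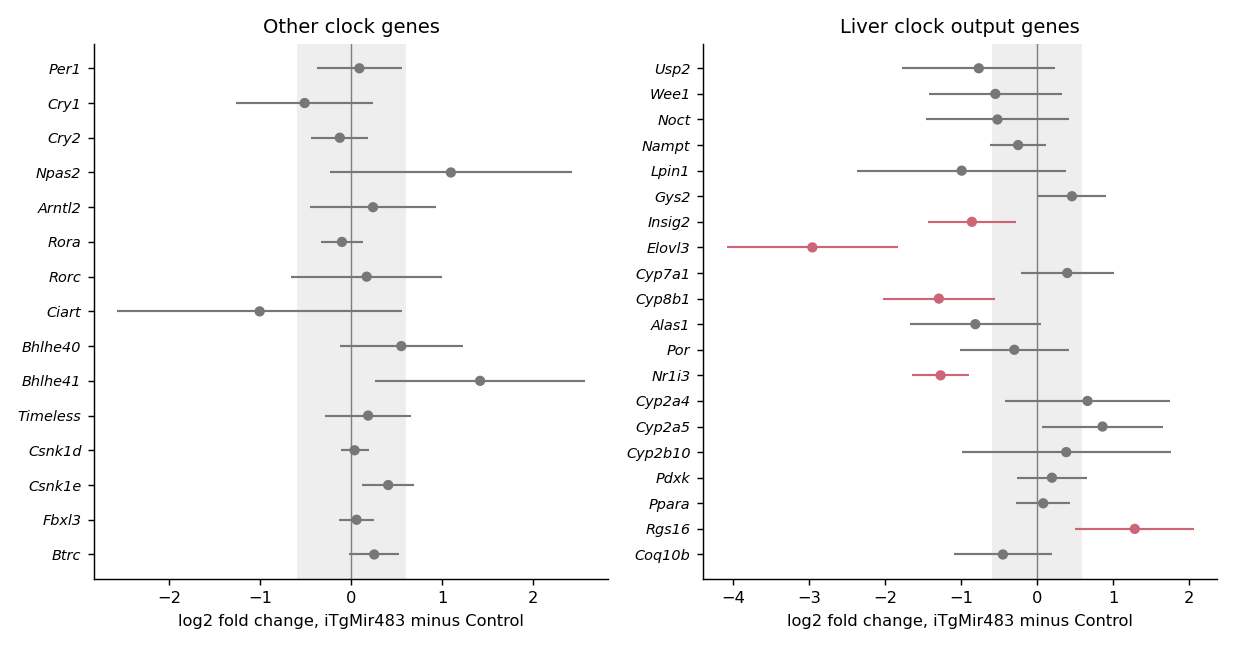
Log2 fold changes, iTgMir483 minus Control, with 95% intervals for the 15 tested other clock genes (left) and the 20 liver clock output genes (right); red marks changed genes, grey the rest, and the grey band fold changes under 1.5. No gene is red on the left, and 5 are red on the right, of which Rgs16 alone lies to the right of 0.

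Signals that reach the liver clock from outside were read from 3 further lists. Of 7 glucocorticoid-responsive genes 0 changed in edgeR, beside 11.1% of all genes, and 2 had an unadjusted p under 0.05, beside 33.4%. DESeq2 called 1, Tsc22d3. The smallest edgeR adjusted p values belonged to Tsc22d3 (log2 fold change -0.82 ± 0.31, adjusted p = 0.0753) and Fkbp5 (-1.11 ± 0.42, adjusted p = 0.0798). Of the 7 genes, 4 had negative and 3 had positive log2 fold changes. Their summed level, made mostly of Tat, ran from 1847 to 5729 CPM in controls. It ran from 763 to 2401 CPM in iTgMir483 livers except liver 4, at 6003 CPM. Without that liver 3 of the 7, Fkbp5, Tat and Tsc22d3, were called changed, and without control 1 Fkbp5 was. Of 10 fasting genes 0 changed (edgeR; 4 at an unadjusted p under 0.05, beside 33.4% of all genes; DESeq2 called 0), although Irs2, at 0.53 ± 0.17 (adjusted p = 0.0456), passed the adjusted p alone. Angptl4 was called without control 1 or without iTgMir483 liver 4, Irs2 without control 4, and Igfbp1 with Irs2 without iTgMir483 liver 1. Of 6 feeding genes 5 were tested and 2 rose (40%, beside 8.41% of all genes that were higher in iTgMir483). They were the fatty acid synthase Fasn (log2 fold change 1.75 ± 0.38, edgeR adjusted p = 0.0065) and Thrsp (2.71 ± 0.61, adjusted p = 0.0077), both regulated by insulin and carbohydrate. Without iTgMir483 liver 4, the highest for Thrsp at 933 CPM, the log2 fold change of Thrsp was 1.77. Without control 1 Acly and Srebf1 were called as well, 4 of the 5. The part of glucocorticoids and meals in the members' values was not tested.

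Library totals ranged from 12244123 to 30431286 counts. Mir483 itself was at 0 CPM in all controls and at 23.3 to 54.3 CPM in iTgMir483 livers, so no library went against its label. Hepatocyte markers summed to 120179 to 168050 CPM in controls and 66176 to 136512 CPM in iTgMir483 livers, a sum made mostly of Alb. Of the 7 hepatocyte markers, the clotting gene Fgb rose (log2 fold change 1.01, edgeR adjusted p = 0.0088), the urea cycle gene Cps1 fell (-1.21, adjusted p = 0.0048), and neither overlapped between the groups. Of all genes tested 11.1% changed, 8.41% being higher and 2.73% lower in iTgMir483, and 7.92% had groups that did not overlap. Of markers of other cells, 6 of 6 Kupffer cell and macrophage genes rose (Clec4f, Timd4, Adgre1, Cd68, Cd5l and Lyz2), beside 8.41% of all genes. Their sums were 229 to 353 CPM in controls and 367 to 1032 CPM in iTgMir483 livers, the highest in liver 4. Further, 3 of 5 bile duct genes rose (Krt7, Epcam and Spp1, with sums of 20.9 to 46.1 CPM in controls and 60.7 to 89.1 CPM in iTgMir483 livers) and both tested neutrophil genes, S100a8 and S100a9, rose. None of 5 stellate, 5 endothelial, 2 tested lymphocyte or 3 erythroid markers changed, adipocyte sums reached 2.34 CPM with Lep at 0, and pancreatic sums 14.1 CPM with Cpa1 at 0. In bulk liver, fewer cells of a type and less RNA per cell cannot be told apart, and the part of these cells in the members' values was not tested. On the second principal component, which held 15.8% of the variance, control 1 and iTgMir483 liver 1 stood at 50.1 and 42.0 and the others at 3.55 or lower. With both left out 0 members changed.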

How the data were processed

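The authors prepared stranded poly(A) libraries from liver RNA, aligned paired-end reads to GRCm38 with STAR and deposited raw read counts per Ensembl gene; which strand column was kept is not stated. All 12 libraries were used, grouped by title, with totals of 12244123 to 30431286 counts, which is the depth behind each value. Symbols came from GENCODE M21 (55141 of 55401 identifiers). Genes were filtered with filterByExpr, scaled by TMM and compared with edgeR 4.0.16 (limma 3.58.1, R 4.3.3); changed means over 1.5-fold at an adjusted p under 0.05. The code was tested on simulated data. Exact two-sided permutation tests of the difference in mean log2 CPM (prior count 0.5) ran over 924 assignments, with 0.0022 the smallest p. Those of correlations ran over all pairings (SciPy 1.17.1). The edgeR log2 fold change is a separate estimate of the group difference. RPKM divides CPM by union exon length. No pair of libraries agreed within sampling noise (smallest chi-square per gene 14.3). Each library was taken as 1 mouse, as the study describes.

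Members and lists were chosen with earlier results of these data known, so counts over them are descriptions. Named genes are the 10 members, in the other lists every changed gene and at most 4 others by smallest adjusted p, Mir483, and the 5 genes most and least correlated with Arntl and with Dbp; Cry1 and the genes overlapping a member were added after their values were seen. The results were recomputed with DESeq2 1.42.0, limma-voom, RLE size factors, 2 other filters, a test against a fold change of 1.5, no fold threshold, a replicate block, a prior count of 5 and libraries left out.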

Additional observations from a re-analysis of the deposited data

Results flagged for a closer look

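In 4 of the 20 sets of 6 values (10 members in 2 groups), 1 liver stood apart from the rest of its group by Dixon's test on CPM, where chance gives about 1 in 20 sets. The members are not independent of each other, and iTgMir483 liver 4 was the highest of its group for Per2 and Nfil3 and the lowest for Clock and Nr1d1. Per2 in iTgMir483 liver 4, at 76.0 CPM against 25.5 to 32.7 CPM in the others, had a gap of 0.857 of the group's range. Nr1d1 in control 3, at 21.7 CPM against 62.1 to 72.6 CPM, had a gap of 0.794. Arntl in iTgMir483 liver 6, at 20.9 CPM against 3.06 to 8.997 CPM, had a gap of 0.667. Nfil3 in control 1, at 39.7 CPM against 11.7 to 22.1 CPM, had a gap of 0.627. On log2 CPM the gaps of these Per2 and Nr1d1 values were 77.1% and 87.1% of the group's range and those of Arntl and Nfil3 43.9% and 47.8%, which would not stand apart, whereas Nr1d1 in iTgMir483 liver 4, at 72.8%, would. Why these livers stood apart was not tested.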

How the results depend on the processing

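The count of 0 members changed held under RLE size factors, both other count filters, DESeq2, limma-voom, the test against a fold change of 1.5 and the replicate block, and it was 1 with no fold threshold (Hlf, lower). Leaving out single libraries gave 0 to 1 members changed and 0 to 1 higher, 0 to 2 other clock genes, 3 to 7 output genes, 0 to 3 glucocorticoid-responsive, 0 to 2 fasting and 2 to 4 feeding genes. With no fold threshold, 2457 genes, 1 other clock gene and 1 fasting gene passed; against a fold change of 1.5, 226 genes, 2 output genes and 0 feeding genes did. DESeq2 called 1 glucocorticoid-responsive gene. With both replicate 1 libraries left out, 1 glucocorticoid-responsive and 3 fasting genes changed. The cause of these shifts was not tested.

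The sign of 4 small fold changes (log2) reversed. Per2 was 0.0039 with limma-voom, and from -0.47 to 0.10 without single libraries. Per3 was 0.023 with limma-voom and from -0.38 to 0.12 without single libraries. Nr1d2 was 0.0098 with at least 10 counts in every sample, 0.0057 with limma-voom and from -0.14 to 0.12 without single libraries. Nfil3 was from -0.43 to 0.23 without single libraries and 0.30 without both replicate 1 libraries.

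The replicate numbers were not used to pair the mice in the main comparison. Correlations of same-numbered libraries over all genes ran from 0.031 to 0.419, the highest for replicate 1. Of 6 controls, 2 correlated best with the iTgMir483 liver of their own number. The labels do not give litters or batches, and these values cannot show whether mice of the 2 groups shared them. With the replicate block, 1530 genes, 7 output, 3 glucocorticoid-responsive, 3 fasting and 3 feeding genes changed, Per3 was 0.0078, Nr1d2 0.0096, and the adjusted p of Hlf was 0.0502.

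The relations of Arntl with Nr1d2 and Tef kept an adjusted p under 0.05 with RLE size factors and a prior count of 5; 14 of 18 relations kept their sign without the 2 farthest libraries. With 6 livers a group, the 95% interval of Dbp ran from -0.18 to 2.003 on the log2 scale, which limits what could be detected for it.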
